A study of Cunninghamia lanceolata with 2 samples.

Results

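The enzymes that build flavonoids were examined in root RNA of Chinese fir (Cunninghamia lanceolata), a timber conifer. Plantlets were kept for 4 months on low phosphorus (LP, less than 0.01 mM, the phosphorus found in distilled water) or on sufficient phosphorus (CK, 1 mM). Both groups had first been grown on for a month in dilute Hoagland nutrient solution, and the labels name no genotype and no number of pooled plants. Each group was represented by 1 RNA-seq library, so every difference below describes 2 libraries, no value has a replicate check and no test was run. The members were the genes assigned by the deposited table to the KEGG maps of flavonoid, anthocyanin, isoflavonoid, or flavone and flavonol biosynthesis, without those also on the phenylpropanoid map and without those whose product name holds the words cytochrome P450. This gave 84 of 32731 assembled genes, under 13 product names.

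Flavonoids are phenolic compounds made from phenylalanine. Chalcone synthase joins a coumaroyl-CoA unit to units of malonyl-CoA, chalcone isomerase closes the ring, and naringenin 3-dioxygenase leads to dihydroflavonols. From there flavonol synthase makes flavonols, while dihydroflavonol-4-reductase, leucoanthocyanidin dioxygenase and anthocyanidin reductase lead to anthocyanidins and to the flavan-3-ols from which condensed tannins are built. Anthocyanin pigments are a familiar sign of phosphate shortage in Arabidopsis shoots, and root flavonoids are known to affect auxin transport and soil microbes.

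The libraries held 48502899 estimated reads in LP and 17848911 in CK; the median gene had 143 reads in LP and 54 in CK. Levels are given as RPKM as the authors deposited them, reads scaled to library total and to the effective length of a gene. Effective length is a separate deposited value, 1159 bases for comp26905_c0, whose gene length is 1938 bases. Among genes with enough reads to check, 85.9% in LP and 91.3% in CK followed this scaling within 10%. The others departed from it by more. A log2 ratio here is log2((LP + 1)/(CK + 1)) on RPKM, which understates the difference of genes with low levels, and a gene is called higher or lower where this ratio reached 1 or -1 (2-fold). Folds of single genes divide RPKM values, or, if a level lay under 1 RPKM, shares of each library's reads, with 95% exact (Clopper-Pearson) intervals of the reads that cover counting error only. In bulk RNA, fewer cells of a type and less RNA per cell cannot be told apart. Of 88 genes whose text names root hair, root cap, root meristem, lateral root or root epidermal cells, 0 had no reads in LP and 2 had none in CK, and they summed to 4199 RPKM under LP and 3813 RPKM under CK. Of the 84 root genes that averaged 1 RPKM or more, 6 were higher in LP (7.14%) and 13 lower (15.5%), with a median log2 ratio of -0.27. Among all genes of that level 8.68% were higher and 16.2% lower, with a median of -0.16. Under TMM scaling, described below, the median was -0.04 for the root genes and 0.05 for all genes. No gene's text names the Casparian strip. The 67 markers of green shoot tissue (genes of the photosynthesis maps and the Rubisco small chain) summed to 1007 RPKM under LP and 1517 RPKM under CK. Among them 0 genes had 0 reads in LP and 2 had 0 reads in CK. Over the 65 that averaged 1 RPKM or more, the median log2 ratio was 0.03, with 5 higher (7.69%) and 14 lower (21.5%). The 2 fungal marker genes (found by the words chitin synthase, ergosterol or hydrophobin) summed to 11.6 RPKM under LP and 14.7 RPKM under CK, with 0 at 0 reads in LP and 1 in CK; the part of these tissues in the flavonoid values was not tested.

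As a group the flavonoid genes stood higher in LP, and most of the extra RNA lay in a few abundant genes of chalcone, flavonol and flavan-3-ol synthesis. The 84 genes summed to 11871 RPKM under LP and 7973 RPKM under CK, 1.49 times as much. They took 1.25% of all reads in LP (exact interval 1.24 to 1.25) and 0.853% in CK (0.849 to 0.857). Over all genes of the table the ratio of summed RPKM, LP over CK, was 1.07. Of the 82 members that averaged 1 RPKM or more over both libraries, 17 were at least 2-fold higher in LP (20.7%), 9 were at least 2-fold lower (11.0%) and 56 stayed within 2-fold. The same limits called 8.68% of all 30843 genes of that level higher and 16.2% lower. The members' median log2 ratio was 0.16, and that of all genes was -0.16.

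On the deposited scale most genes lay slightly below equal levels. Scaling by TMM, which sets the bulk of the genes equal, moved the median of all genes up by 0.21 to 0.05 on the log2 scale. It called 11.1% of all genes higher and 12.8% lower, against 19 higher and 8 lower of the members. The members' median stood 0.31 above that of all genes on the deposited scale and 0.35 above it with TMM. TMM raised the ratio of summed RPKM by the same factor in every set of genes. It became 1.27 over all genes and 1.76 over the members.

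Flavonoid genes were also more abundant than most genes, with a median of 24.6 RPKM averaged over both libraries, against 5.84 RPKM for all genes of at least 1 RPKM. The median log2 ratio of all genes varied with abundance and was 0.15 at a mean of at least 100 RPKM, -0.02 at 10 to 100 RPKM and -0.31 at 1 to 10 RPKM. The members' medians in these ranges were 0.61 (21 genes), 0.07 (38 genes) and 0.05 (23 genes). At 10 to 100 RPKM, 9 of 38 members (23.7%) were higher in LP, where 7.85% of all genes were. At 1 to 10 RPKM it was 5 of 23 (21.7%), where 8.9% of all genes were. Among the most abundant members 3 of 21 (14.3%) were higher, close to the 11.8% of all genes at that level. Lower members made up 4.76%, 7.89% and 21.7% of these 3 ranges from high to low, against 6.56%, 6.97% and 21.8% of all genes.

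**Figure D1:**
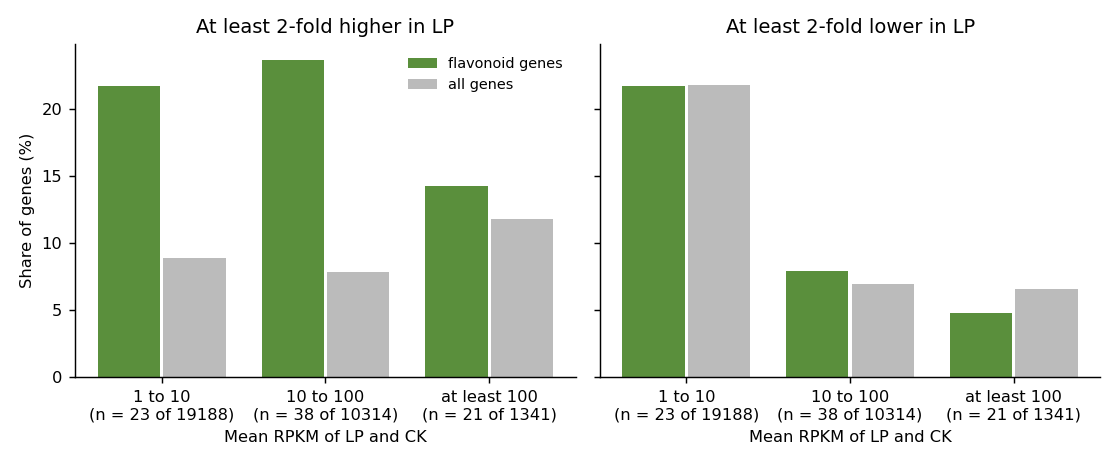
Share of genes at least 2-fold higher (left) or lower (right) in LP than in CK, in percent, for flavonoid genes and for all genes in 3 ranges of mean RPKM; n gives members and all genes. At 10 to 100 RPKM 23.7% of the members were higher against 7.85% of all genes, while the lower shares lay side by side in each range.

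Short assembled genes, which can be fragments, held a large part of the higher members. Of 19 members under 500 bases, 7 were higher in LP (36.8%) and 1 was lower (5.26%), where all genes under 500 bases had 11.2% higher and 24.4% lower. Of 63 members of at least 500 bases, 10 were higher (15.9%) and 8 lower (12.7%), against 6.89% and 10.3% of all genes of that length.

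Chalcone synthase, the entry enzyme, was the most abundant name and had the largest summed difference. All 5 genes had more RPKM under LP, and 3 of them passed 2-fold. Together they held 4695 RPKM under LP and 2587 RPKM under CK (1.81 times), and their difference made up 54.1% of that of all 84 genes. The gene comp26905_c0, assembled as 17 transcripts over 1938 bases, had 2333 RPKM under LP and 1143 RPKM under CK, 2.04-fold higher (2.01 to 2.07). It ranked 15th among all genes in LP and 35th in CK. It lay just above the limit with a log2 ratio of 1.03, and fell below it when RPKM was recomputed from reads and gene length. The next gene, comp26086_c0, had 1901 RPKM under LP and 1218 RPKM under CK (1.56-fold, 1.53 to 1.59), within 2-fold. It took rank 18 in LP and rank 31 in CK.

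The 3 remaining chalcone synthase genes were shorter, at 279 to 442 bases. Of these comp5707_c0 had 357 RPKM under LP and 186 RPKM under CK (1.93-fold, 1.81 to 2.04), just under the limit, and comp385_c0 had 83.7 RPKM and 35.3 RPKM under CK (2.37-fold, 1.98 to 2.86). The lowest in level and highest in ratio was comp19192_c0, at 19.9 RPKM under LP and 5.4 RPKM under CK (3.68-fold, 2.57 to 5.44). Both libraries ordered these 3 alike below the top pair, whose order was reversed. The table gives 3 of these 5 genes the same protein identifier, so reads may be shared among near-identical copies or pieces of one gene.

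None of the 5 genes named 6'-deoxychalcone synthase, an aldo-keto reductase that acts beside chalcone synthase in legumes, passed the limit on the log2 scale with its pseudocount. Their sum was 63.3 RPKM under LP and 67.0 RPKM under CK (0.945 times). Under TMM scaling their ratio of sums was 1.12, below the 1.27 of all genes. Their most abundant gene, comp24569_c0, had 27.0 RPKM under LP and 36.2 RPKM under CK (1.34-fold lower, 1.22 to 1.47). The highest, comp19161_c0, had 11.9 RPKM under LP and 5.91 RPKM under CK (2.01-fold, 1.62 to 2.52), with a log2 ratio of 0.90 under the pseudocount, and it was called higher under TMM scaling. At the other end comp116651_c0 had 12 reads in LP and 13 in CK (0.96 under LP and 2.83 RPKM under CK, 2.94-fold lower by reads per library, 1.24 to 7.06), a log2 ratio of -0.97. All 5 carry 1 protein identifier and no GO term. The single chalcone isomerase gene, comp16338_c0, had 99.4 RPKM under LP and 84.5 RPKM under CK (1.18-fold, 1.13 to 1.23).

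Naringenin 3-dioxygenase, also called flavanone 3-hydroxylase, had 11 genes, of which 10 stayed within 2-fold and 1 was lower. They summed to 1294 RPKM under LP and 923 RPKM under CK (1.40 times). The dominant gene, comp26337_c0, had 898 RPKM under LP and 552 RPKM under CK (1.63-fold, 1.60 to 1.66). A second, comp28584_c0, differed by as much, at 138 RPKM under LP and 85.2 RPKM under CK (1.63-fold, 1.505 to 1.757), whereas comp26541_c0 went the other way, at 113 RPKM under LP and 157 RPKM under CK (1.39-fold lower, 1.33 to 1.45). The highest ratio was that of comp14005_c0, at 8.87 RPKM under LP and 4.72 RPKM under CK (1.88-fold, 1.56 to 2.28). The 1 lower gene, comp128364_c0, rested on 3 reads in LP and 47 in CK (0.11 under LP and 4.89 RPKM under CK, 42.6-fold lower, 13.7 to 214), and its GO terms name an oxygenase that uses 2-oxoglutarate but no flavonoid activity. The 8 genes with a flavonoid GO term had 0 higher and 0 lower, with log2 ratios from -0.47 to 0.79.

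**Figure D2:**
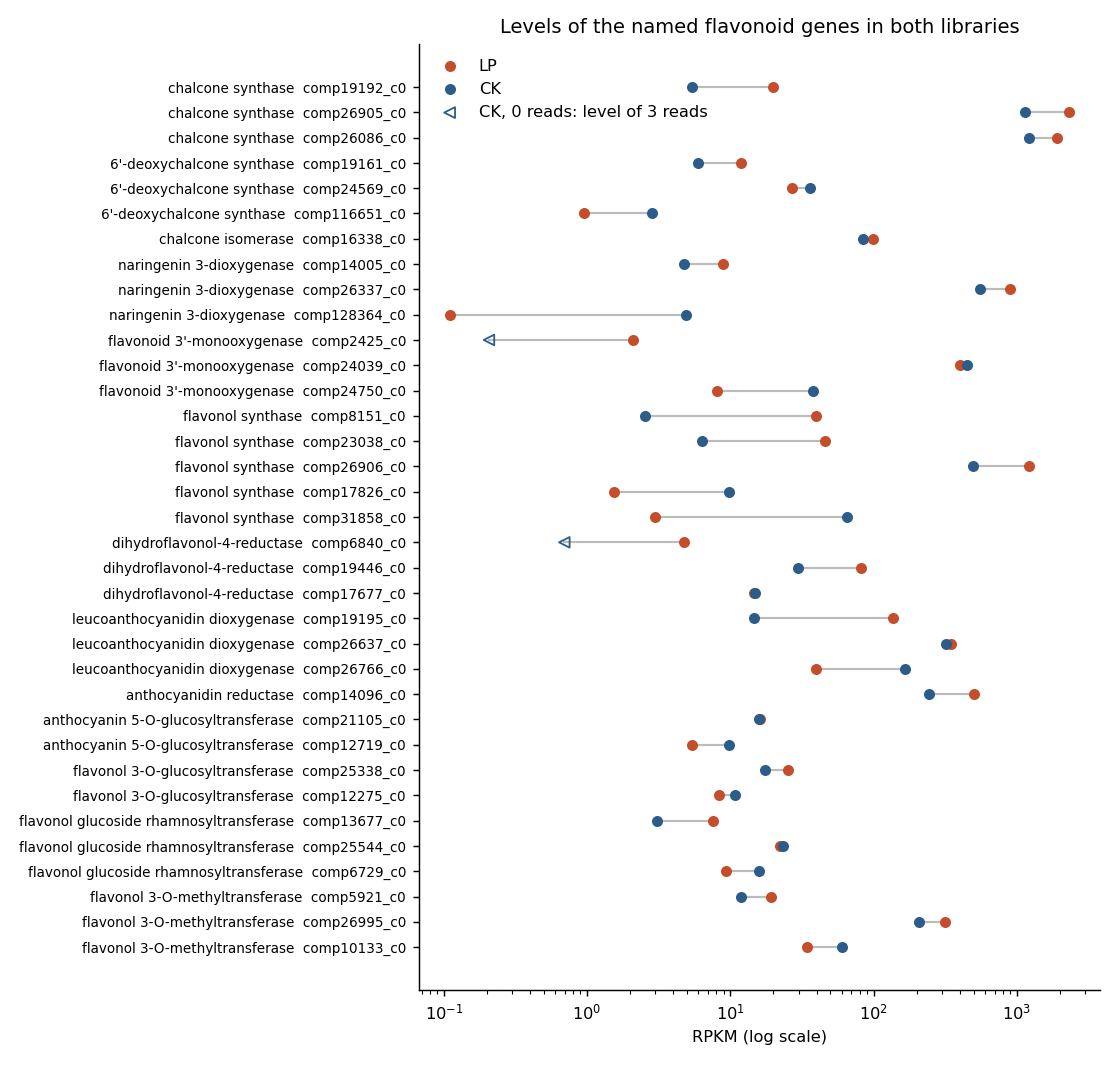
RPKM under LP and CK (log axis) of the 35 members picked by level and ratio within each enzyme name; a line joins both libraries of a gene, and an open triangle marks the level of 3 reads where CK had 0 reads. The abundant chalcone synthase, naringenin 3-dioxygenase, flavonol synthase and anthocyanidin reductase genes had their LP point to the right, while comp31858_c0, comp26766_c0 and comp24750_c0 had it to the left.

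Flavonoid 3'-monooxygenase, which adds a hydroxyl group to the B ring, was the largest name, with 18 genes, and balanced. It is itself a cytochrome P450 enzyme, but its product name in the table does not use those words. In all 3 genes were higher, 3 were lower and 12 lay within 2-fold, and the sums were 1540 RPKM under LP and 1520 RPKM under CK. The most abundant in both libraries was comp24039_c0, with 400 RPKM under LP and 447 RPKM under CK (1.12-fold lower, 1.10 to 1.14). The close second in LP, comp26244_c0, had 390 RPKM under LP and 251 RPKM under CK (1.55-fold higher, 1.52 to 1.59), so that the gap between these genes was wide in CK and narrow in LP.

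The lower genes of this name were well covered and the higher ones were not. In LP comp24750_c0 had 8.11 RPKM, against 38.1 RPKM under CK, on 450 LP reads and 771 CK reads (4.69-fold lower, 4.17 to 5.28). Likewise comp26845_c0 had 14.3 RPKM under LP and 38.7 RPKM under CK, and comp23598_c0 had 3.7 RPKM under LP and 13.4 RPKM under CK. The higher genes had at most 19 CK reads. They were comp13314_c0 (17.7 RPKM under LP, 5.37 RPKM under CK), comp94368_c0 (3.54 RPKM under LP and 0.59 RPKM under CK) and comp2425_c0, with 2.09 RPKM on 79.8 estimated reads under LP and no read (0) under CK, at least 9.79-fold higher when CK is set to 3 reads. A set of 9 of the 18 genes carries 1 protein identifier, and its log2 ratios ran from -2.10 to 1.63. Of the 18, 3 have a GO term for flavonoid 3'-monooxygenase activity and 2 for flavonoid 3',5'-hydroxylase activity. These 5 summed to 529 RPKM under LP and 371 RPKM under CK, and the 13 others to 1011 RPKM under LP and 1150 RPKM under CK.

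**Figure D3:**
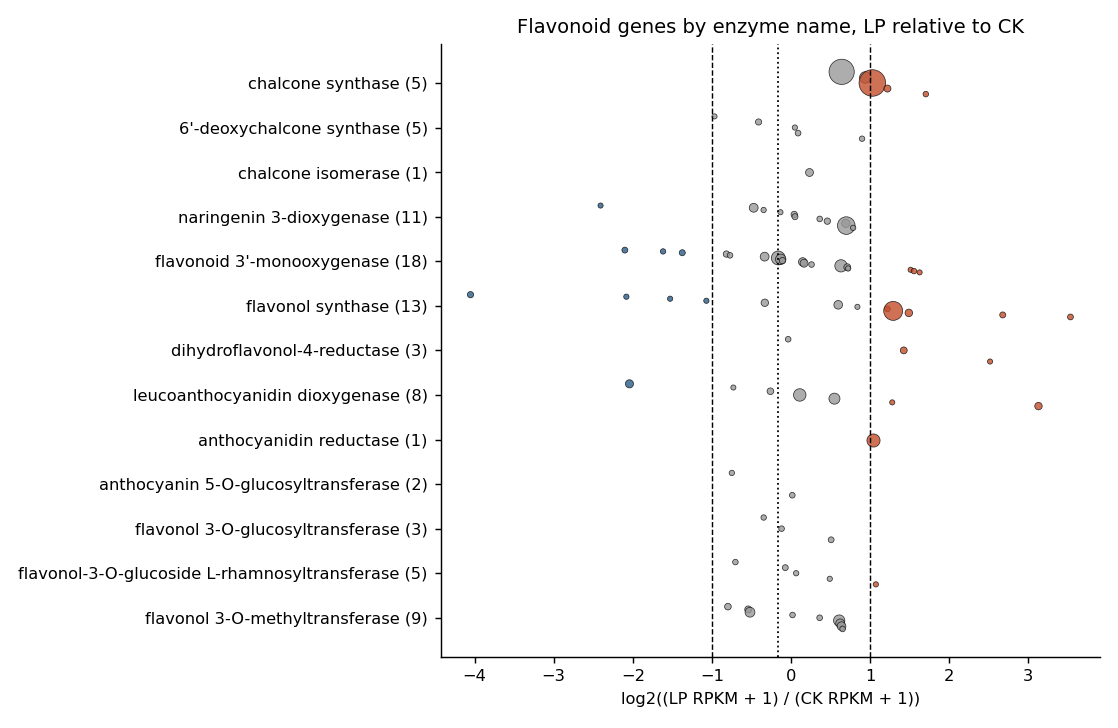
Log2 ratio of LP over CK on RPKM + 1 for the 82 members of at least 1 RPKM, by enzyme name in pathway order (number of genes in brackets); point area grows with mean RPKM, dashed lines mark 2-fold, and the dotted line marks the median of all genes (-0.16). Flavonol synthase genes spread from -4.05 to 3.54, all 5 chalcone synthase genes lay above 0.6, and the 9 methyltransferases stayed within 2-fold.

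Flavonol synthase genes spread more widely than those of any other name, from 21.8-fold lower to 15.8-fold higher. Of 12 kept genes 5 were higher, 4 were lower and 3 lay within 2-fold. In sum the name had 1673 RPKM under LP and 829 RPKM under CK (2.02 times), but a single gene held most of it. That gene, comp26906_c0, had 1214 RPKM under LP and 495 RPKM under CK (2.45-fold, 2.39 to 2.52), and stood at rank 36 in LP and rank 127 in CK. It accounted for 18.5% of the summed difference of all 84 members.

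Below it, comp8151_c0 had 39.8 RPKM under LP and 2.52 RPKM under CK (15.8-fold, 12.03 to 21.16), and comp23038_c0 had 45.9 RPKM under LP and 6.32 RPKM under CK (7.26-fold, 5.03 to 10.9). In the opposite direction comp31858_c0 had 2.98 RPKM under LP and 65.1 RPKM under CK (21.8-fold lower, 15.6 to 31.3). Further lower genes were comp17826_c0 at 1.54 RPKM under LP and 9.75 RPKM under CK (6.33-fold lower, 4.76 to 8.49), comp25219_c0 at 1.58 RPKM under LP and 6.44 RPKM under CK, and comp12967_c0 at 2.75 RPKM under LP and 6.87 RPKM under CK. Both genes at the ends of this range among those with flavonol synthase terms, comp23038_c0 and comp31858_c0, are short, at 325 and 330 bases, and comp31858_c0 rested on 39.5 estimated reads in LP. The call for comp12967_c0 was lost under TMM scaling.

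The product name covered enzymes with several GO descriptions. A term for flavonol synthase activity was carried by 4 of the 13 genes (comp26906_c0, comp23038_c0, comp19040_c0 and comp31858_c0), which summed to 1330 RPKM under LP and 650 RPKM under CK. The highest gene, comp8151_c0, instead carries the term of 1-aminocyclopropane-1-carboxylate oxidase, the last enzyme of ethylene synthesis, as does comp164051_c0. A term for organ senescence was given to comp26971_c0, comp12967_c0 and comp17826_c0, of which 2 were lower. All of these belong to the large family of dioxygenases that use 2-oxoglutarate or ascorbate, in which related proteins act on different substrates.

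Genes of the branch to flavan-3-ols leaned to LP at both reductases and were split at the dioxygenase. Anthocyanidin reductase, which makes flavan-3-ol units of condensed tannins, had 1 gene, comp14096_c0, with 505 RPKM under LP and 244 RPKM under CK (2.07-fold, 2.01 to 2.12). Its log2 ratio of 1.04 lay just above the limit, and it ranked 157th in LP and 384th in CK. Dihydroflavonol-4-reductase had 3 genes. The most abundant, comp19446_c0, had 81.6 RPKM under LP and 29.7 RPKM under CK (2.75-fold, 2.53 to 2.98). In comp17677_c0 the levels were 14.6 RPKM under LP and 15.0 RPKM under CK. The short comp6840_c0, of 242 bases, had 4.73 RPKM on 41 reads under LP and no read (0) under CK, at least 5.03-fold higher on the same bound, and is the 1 gene of the 3 with a GO term for the reductase activity.

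Leucoanthocyanidin dioxygenase, also called anthocyanidin synthase, had 8 genes that summed to 859 RPKM under LP and 754 RPKM under CK (1.14 times). The most abundant genes differed little. Levels of comp26637_c0 were 345 RPKM under LP and 320 RPKM under CK (1.08-fold, 1.05 to 1.11), and those of comp26889_c0 were 291 RPKM under LP and 198 RPKM under CK (1.47-fold, 1.42 to 1.51). Both extremes came from genes of other GO description. Highest was comp19195_c0, with 136 RPKM under LP and 14.7 RPKM under CK (9.29-fold, 8.30 to 10.4), whose terms name a methyltransferase activity and alkaloid metabolism but no flavonoid activity. Lowest was comp26766_c0, with 39.5 RPKM under LP and 166 RPKM under CK (4.20-fold lower, 3.92 to 4.49), whose terms name flavonol synthase and naringenin 3-dioxygenase activity. The third called gene, comp4342_c1, had 23 reads in LP and 2 in CK (3.4 under LP and 0.81 RPKM under CK). The 6 genes with a leucocyanidin oxygenase term were the remaining ones and included comp4342_c1 as their only called gene.

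Pairs that share a protein identifier across names ended on opposite sides. The identifier of comp19195_c0 is also that of the flavonol synthase comp25219_c0, with log2 ratios of 3.13 and -1.53. The identifier of the higher flavonol synthase comp26906_c0 is also that of the lower comp26766_c0, with 1.29 and -2.04. In all, 82 members carry 52 different identifiers, 45 members share one with another member in 15 groups, and 3 of these groups held both higher and lower genes.

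**Figure D4:**
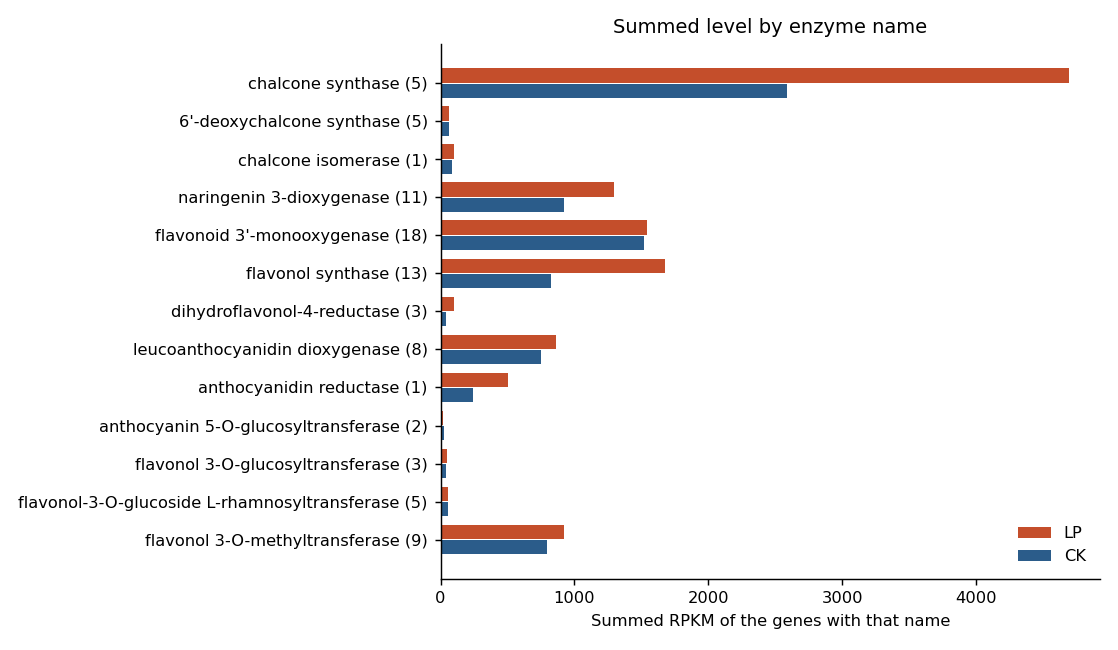
Summed RPKM of all genes under each enzyme name in LP and CK (number of genes in brackets). Chalcone synthase held the largest sum in both libraries, at 4695 RPKM under LP and 2587 RPKM under CK, flavonoid 3'-monooxygenase was near equal, and the sugar transferases were low in both.

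Enzymes that decorate flavonoids had few genes beyond 2-fold, and so few genes give no clear departure from all genes. The 10 sugar transferases, which attach glucose or rhamnose, summed to 121 RPKM under LP and 122 RPKM under CK. Of these, 1 was higher (10%) and 0 lower, beside 8.68% higher and 16.2% lower among all genes of at least 1 RPKM. For the 5 rhamnosyltransferases alone the ratio of sums was 0.986, and 1.17 under TMM scaling, where that of all genes was 1.27. The higher gene, the rhamnosyltransferase comp13677_c0, had 7.59 RPKM under LP and 3.08 RPKM under CK (2.46-fold, 1.96 to 3.14). The most abundant of the 5 rhamnosyltransferases, comp25544_c0, had 22.2 RPKM under LP and 23.3 RPKM under CK, and comp6729_c0 had 9.35 RPKM under LP and 15.8 RPKM under CK. Flavonol 3-O-glucosyltransferase ran from 25.1 RPKM under LP and 17.4 RPKM under CK (comp25338_c0) to 8.3 RPKM under LP and 10.8 RPKM under CK (comp12275_c0). For anthocyanin 5-O-glucosyltransferase the values were 16.1 RPKM under LP and 15.9 RPKM under CK (comp21105_c0) and 5.41 RPKM under LP and 9.76 RPKM under CK (comp12719_c0).

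None of the 9 flavonol 3-O-methyltransferase genes passed 2-fold. Most genes at such levels did not either. Of all genes at 10 to 100 RPKM 7.85% were higher and 6.97% lower, and at 100 RPKM or more 11.8% and 6.56%. The 9 genes summed to 920 RPKM under LP and 797 RPKM under CK. The most abundant, comp26995_c0, had 315 RPKM under LP and 206 RPKM under CK (1.53-fold, 1.46 to 1.61), and the highest ratio, that of comp5921_c0, came from 19.2 RPKM under LP and 11.8 RPKM under CK. The lowest, comp10133_c0, had 34.3 RPKM under LP and 60.3 RPKM under CK (1.76-fold lower, 1.65 to 1.87). Of the 9 genes, 8 also carry a term for caffeate O-methyltransferase, an enzyme of lignin synthesis, and 1 of them has a quercetin methyltransferase term as well.

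Across all names, 38 of the 84 members carry a GO term that names a flavonoid activity or process, 35 carry only other terms and 11 carry none. The 38 summed to 9174 RPKM under LP and 5589 RPKM under CK (1.64 times), and the 46 others to 2697 RPKM under LP and 2384 RPKM under CK (1.13 times). Of the 37 kept genes with such a term 9 were higher (24.3%) and 2 lower (5.41%), with a median of 0.49. Of the 45 kept genes without one 8 were higher (17.8%) and 7 lower (15.6%), with a median of 0.04. This split was made with the values in view. The difference was concentrated in a few genes, since comp26905_c0, comp26906_c0, comp26086_c0, comp26337_c0 and comp14096_c0 held all but 699 RPKM of the summed difference of 3898 RPKM, and the 79 others summed to 5019 RPKM under LP and 4321 RPKM under CK (1.16 times).

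The authors' deposited table marks 20 of the 84 members as significant, 13 higher and 7 lower (23.8%), where 10.4% of all genes are marked, 5.27% higher and 5.17% lower. The marks in the authors' deposited table go with p-values up to 0.04 and FDR values up to 0.29 among these 20 members, so a mark does not stand for a low FDR, and the comparison is one between 2 libraries. All 20 were beyond 2-fold here, and 6 of the 26 genes beyond 2-fold were not marked. The authors' deposited table gives comp26086_c0 a log2 fold change of 0.64 and no mark. Every gene marked there has a log2 fold change of at least 1 in size, in either direction.

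Enzymes that feed the pathway had a smaller ratio of sums than the flavonoid genes. Their median log2 ratio was larger and their share of higher genes was similar, and no difference was tested. For the flavonoid genes these values were 1.49, 0.16 and 20.7%. The 24 genes of phenylalanine ammonia-lyase, trans-cinnamate 4-monooxygenase and 4-coumarate--CoA ligase, which make coumaroyl-CoA for lignin and flavonoids alike, summed to 3319 RPKM under LP and 2418 RPKM under CK (1.37 times), with 5 higher (20.8%), 3 lower (12.5%) and a median of 0.30. The most abundant genes of each differed by less than 2-fold. Among them trans-cinnamate 4-monooxygenase comp24515_c0 had 1411 RPKM under LP and 972 RPKM under CK (1.45-fold, 1.43 to 1.47), phenylalanine ammonia-lyase comp23688_c0 had 321 RPKM under LP and 217 RPKM under CK (1.47-fold, 1.44 to 1.51), and 4-coumarate--CoA ligase comp22843_c0 had 203 RPKM under LP and 127 RPKM under CK (1.60-fold, 1.55 to 1.65). All 3 higher ligase genes had 0 reads in CK and 3.5 to 8.89 RPKM under LP. Of the 5 acetyl-CoA carboxylase genes, whose enzyme makes malonyl-CoA, 1 was higher and 0 were lower, and they summed to 288 RPKM under LP and 197 RPKM under CK.

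**Figure D5:**
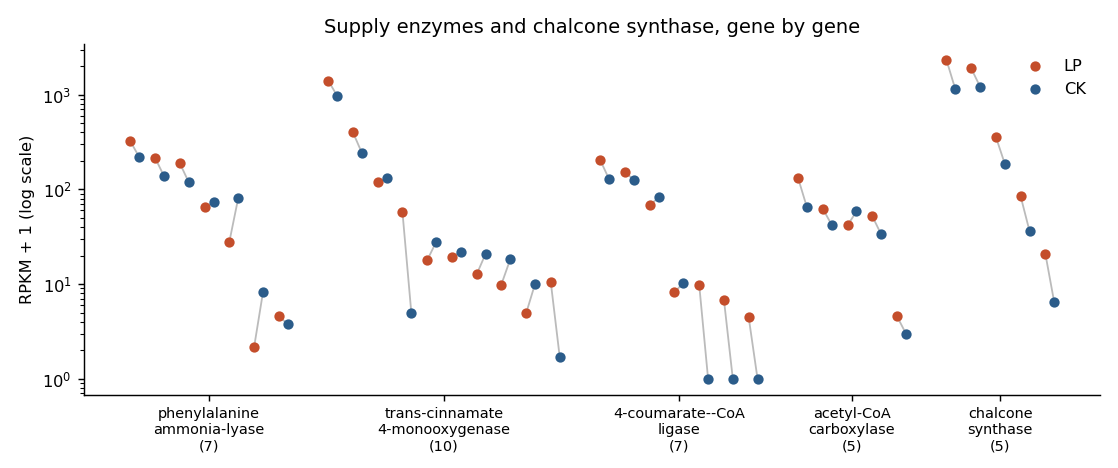
RPKM + 1 (log axis) of each supply gene and each chalcone synthase gene in LP and CK, ordered within a name by mean level (number of genes in brackets); points at 1 had 0 reads. The most abundant gene of every name had its LP point above CK, and the 3 ligase genes without CK reads were all below 10 RPKM under LP.

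The genes of the phenylpropanoid map had shares of higher and lower genes close to those of the flavonoid members, and no difference between the lists was tested. The lists of this map and of the supply enzymes overlap, so they are not separate comparisons. The 23 flavonoid-map genes that also belong to the phenylpropanoid map, and so are no members, summed to 5809 RPKM under LP and 2789 RPKM under CK (2.08 times), with 4 higher (17.4%) and 3 lower (13.0%). They include the 10 trans-cinnamate 4-monooxygenase genes counted above as supply, with 2053 RPKM under LP and 1442 RPKM under CK. The sum of the 23 genes was led by a caffeoyl-CoA O-methyltransferase, comp27096_c0, with 2569 RPKM under LP and 425 RPKM under CK (6.05-fold, 5.92 to 6.18), an enzyme of lignin synthesis. The phenylpropanoid map without peroxidases holds those 23 genes and the supply genes that make coumaroyl-CoA. It had 24 of 133 genes higher (18.05%) and 19 lower (14.3%), with a median of -0.02 that became 0.19 under TMM scaling, and a ratio of sums of 1.36. The terpenoid and carotenoid maps had 12 of 103 higher (11.7%) and 10 lower (9.71%), with a median of 0.05 and a ratio of sums of 0.91 that became 1.08 under TMM scaling. Over all genes the ratio of sums was 1.07, and 1.27 under TMM scaling. The map of shikimate and aromatic amino acids, which ends in phenylalanine, had 2 of 46 genes higher and 2 lower, with a median of 0.14 and a ratio of sums of 1.19.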

How the data were processed

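The authors deposited 1 table with estimated counts, RPKM, log2 fold changes, p-values with FDR, lengths and a yes or no mark per assembled gene, per the file headers. No source used here gives the assembler, aligner, counter or test. Per the labels' protocols, root RNA was extracted with Trizol and poly(A) RNA was sequenced as paired ends; that protocol mentions adipose tissue and a poly(A)- fraction too. The deposited log2 fold change equalled log2 of LP over CK RPKM within 0.01 in all 25479 genes of at least 1 RPKM in both libraries. Estimated counts were rounded for intervals and for the TMM factors (edgeR 4.0.16, R 4.3.3); the rest used Python 3.11.15 with scipy 1.17.1.

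From these the log2 ratio with a pseudocount of 1 RPKM was computed for genes averaging 1 RPKM or more (82 of the 84 members). No test was run because each group has 1 library. Only the 2-fold calls were tested on simulated data, for genes well above the limit of 1 RPKM. The planted changes were well beyond 2-fold and the noise was counting noise only. Calls near 2-fold, intervals, sums and scalings were not tested in that way. Named genes were, per product name, the most abundant, the highest and the lowest, then the 5 highest and 5 lowest ratios, the 5 most abundant per library, and members with 0 reads in 1 library and at least 10 in the other (35 genes); other genes named were chosen after their values were seen. The members and lists were chosen with earlier results of these data known. Product names were not checked against sequence.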

Additional observations from a re-analysis of the deposited data

How the results depend on the processing

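Every alternative kept more higher than lower members and a positive median. The ratio of sums stayed above 1 wherever it was computed. It was not computed for the authors' deposited fold changes, and the pseudocounts leave it unchanged. Over pseudocounts of 0.1 and 0.5, filters (none, at least 5 RPKM, at least 10 reads in each library), TMM and median-of-ratios scaling, recomputed RPKM and the authors' deposited fold changes, 13 to 19 members were higher and 6 to 11 lower. The ratio of sums moved to 1.76 under TMM and 1.73 under median-of-ratios scaling, whose factors apply to all genes alike. Over all genes it moved to 1.27 and 1.25. Of alternatives added after the data were seen, a mean of at least 100 RPKM left 21 members, with 3 higher, 1 lower, a median of 0.61 and a ratio of sums of 1.55. Members with a flavonoid GO term gave 9 higher, 2 lower and a ratio of 1.64, and lengths of at least 500 bases gave 10 higher, 8 lower and a median of 0.09. Those subsets test fewer genes by construction. Calls near 2-fold depended on the scale: comp19161_c0 and comp5707_c0 passed it under TMM, and comp12967_c0 did not. No named gene called beyond 2-fold changed direction in the alternatives run. Of 306 values of named genes under alternatives, 255 lay within their counting interval. The filters leave a gene's ratio unchanged, so their part of these values lay within it by construction and shows no stability. No paired analysis was possible because each group has 1 library, and no replicate could be left out. The lower depth of CK limits low genes: 10 members had under 10 reads in CK and 4 in LP.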

Other observations

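Genes outside the members whose text names flavonoids, flavonols or anthocyanins numbered 93. Of the 88 with at least 1 RPKM on average, 12 were higher by 2-fold or more under LP (13.6%) and 8 lower (9.09%). Of all genes of that level 8.68% were higher and 16.2% lower. The median log2 ratio was -0.11 (0.12 under TMM scaling), against -0.16 for all genes (0.05 under TMM scaling). All 93 summed to 3827 RPKM under LP and 3516 RPKM under CK. Some of them carry a term for the reductase step, and these were picked out after their values were seen. A GO term for dihydrokaempferol 4-reductase activity was carried by 11 genes that are no members, of which 2 were higher and 0 lower by the log2 limit. Of these, comp25894_c0 had 267 RPKM under LP and 128 RPKM under CK (2.08-fold, 1.99 to 2.18), comp8694_c0 had 134 RPKM under LP and 54.7 RPKM under CK (2.44-fold, 2.19 to 2.73), and cinnamoyl-CoA reductase comp5667_c0 had 521 RPKM under LP and 312 RPKM under CK (1.67-fold, 1.63 to 1.71). Another cinnamoyl-CoA reductase with the term, comp27038_c0, had 146 RPKM under LP and 292 RPKM under CK (2.004-fold lower, 1.93 to 2.08), with a log2 ratio of -0.998 that missed the limit through the pseudocount. In sum the 11 genes had 1808 RPKM under LP and 1365 RPKM under CK, but this sum includes genes named as other enzymes. Besides the cinnamoyl-CoA reductases, these are UDP-apiose/xylose synthase comp16353_c0 (289 RPKM under LP, 196 RPKM under CK) and dTDP-glucose 4,6-dehydratase comp25549_c0 (289 RPKM under LP, 173 RPKM under CK). The sum is therefore no measure of the reductase step. The 3 genes named dihydroflavonol-4-reductase summed to 101 RPKM under LP and 44.7 RPKM under CK.

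Genes with terms for the regulation of flavonoid or anthocyanin synthesis did not share a direction. Of 20 such genes 3 were higher (15%) and 3 lower (15%), where 8.68% of all genes were higher and 16.2% lower. Their median was -0.27, against -0.16 for all genes. Under TMM scaling 3 were higher, 1 was lower and the median was -0.07. With that scaling 11.1% of all genes were higher and 12.8% lower, with a median of 0.05. The 3 higher genes, comp16215_c0, comp20365_c0 and comp15200_c0, carry the same set of terms, with apoplast, cell wall and vacuole among them. Their levels were 74.0, 50.8 and 123 RPKM under LP, against 32.5, 22.8 and 58.7 RPKM under CK. The most abundant lower gene, comp24020_c0, has terms for DNA binding and transcription and stood at 97.1 RPKM under LP and 195 RPKM under CK (2.01-fold lower, 1.96 to 2.06), at the very limit with a log2 ratio of -1.0002. Cryptochrome 1 (comp22189_c0), a blue light receptor whose terms name anthocyanin metabolism, had 5.57 RPKM under LP and 23.3 RPKM under CK (4.18-fold lower, 3.81 to 4.59). Another cryptochrome 1 gene with that term, comp22312_c0, had 16.9 RPKM under LP and 22.4 RPKM under CK (1.32-fold lower, 1.24 to 1.42), within 2-fold.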
